A study of Ambystoma mexicanum with 8 samples.

Results

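The genes described here are KDR, TEK, TIE1, CDH5, EGFL7 and ERG, a set of endothelial receptors and their companions, in axolotl limb cells sorted by DNA content. Members were every identifier in the deposited gene list whose last symbol was one of these 6 names, which gave 9 identifiers of 60956: 1 each for KDR, EGFL7 and ERG and 2 each for TEK, TIE1 and CDH5. Live limb cells of wild-type axolotls (Ambystoma mexicanum), stained with calcein AM and propidium iodide, were sorted for a 4C DNA content and sequenced with the 10x 3' v3.1 chemistry. The 8 libraries formed 2 groups. The 4 Contra libraries (numbers 1, 2, 3 and 5) are taken as the systemically activated limbs, collected 14 days after amputation, and the 4 Intact libraries (numbers 1, 3, 4 and 5) as the homeostatic limbs. The labels do not spell out Contra, and they do not say whether each library came from a separate animal. For Contra against Intact, p-values thus measure the spread between these libraries. Where the library is a block, they measure the spread of the differences within libraries. A pair of cells that stick together can pass the same 4C gate as a dividing cell.

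KDR (VEGFR2) is the main signalling receptor for VEGF-A in vertebrate endothelium, and TEK (TIE2) is the receptor for the angiopoietins, with TIE1 as its orphan partner. CDH5 (VE-cadherin) is the cadherin of endothelial adherens junctions, EGFL7 is a protein that endothelium secretes into its matrix, and ERG is an ETS-family transcription factor that maintains endothelial genes. LYVE1, a hyaluronan receptor, is known from mammals as a marker of lymphatic endothelium and of some veins, sinusoids and macrophages. VWF encodes von Willebrand factor, made by endothelium and by megakaryocytes or thrombocytes, and TOP2A is a topoisomerase of the S, G2 and M phases.

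Total counts per library lay between 13344968 (Intact 5) and 99777499 (Contra 3). Of 34149 cells, 33756 passed the filters, 22847 Contra and 10909 Intact, and they fell into 27 clusters, 7 of which stayed unnamed. The names were rebuilt from marker genes and did not use the members. Between libraries, 135 cell barcodes were shared, and 19 endothelial-like cells carried one of them. The endothelial-like class of 2409 cells, with a median of 8161 UMIs per cell, was made of cluster 18 (1715 cells), led by VWF, MMRN1 and LYVE1, and cluster 23 (694 cells), led by PLVAP and ESAM. Levels below are counts of a gene per 1000000 UMIs of a set of cells (CPM). They are tags of transcript 3' ends without a length scale, so each gene is compared across cells and not with other genes. Where a symbol has a pair of identifiers, the counting could have split reads of one gene between them, and the values of each are uncertain to that extent.

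Every member but ERG was concentrated in the endothelial-like cells. That class held 5.69% of all UMIs, but 84.2% of the UMIs of KDR, 93.5% and 69.9% of those of TEK AMEX60DD044572 and AMEX60DD044621, 80.6% and 71.4% of those of TIE1 AMEX60DD020063 and AMEX60DD020065, 92.9% and 94.4% of those of CDH5 AMEX60DDU001008638 and AMEX60DD015366, and 92.0% of those of EGFL7. For KDR the class averaged 156 ± 29.6 CPM (SD over 8 libraries), with a lowest library of 109 and a highest of 203, beside 1.77 ± 0.411 CPM in connective tissue-like cells and 0.917 ± 0.196 CPM in epidermal-like cells. TEK averaged 91.0 ± 7.59 CPM (AMEX60DD044572) and 71.9 ± 9.91 CPM (AMEX60DD044621) in the same 8 libraries. Its libraries lay close together, with a lowest and a highest of 79.4 and 102 CPM for the one identifier and 60.1 and 85.1 CPM for the other.

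The other members apart from ERG were also highest in endothelial-like cells. TIE1 averaged 214 ± 26.8 CPM (AMEX60DD020063) and 115 ± 21.2 CPM (AMEX60DD020065) in endothelial-like cells, beside 3.98 ± 1.07 and 3.37 ± 0.243 CPM in connective tissue-like cells. CDH5 averaged 386 ± 60.9 CPM (AMEX60DDU001008638) and 480 ± 53.5 CPM (AMEX60DD015366), beside 1.41 and 1.09 CPM. EGFL7 averaged 338 ± 40.0 CPM, beside 1.79 CPM. In the macrophage-like, erythroid-like and mast cell or basophil-like classes the 8 identifiers other than ERG had pooled levels between 0.182 and 2.01 CPM, and in connective tissue-like cells between 0.299 and 4.45 CPM. In order of mean level, KDR was highest in endothelial-like cells, then in thrombocyte-like cells, followed by the unnamed (2.25 ± 1.22 CPM), connective tissue-like, mast cell or basophil-like (1.76 ± 1.77 CPM, 4 libraries), epidermal-like, macrophage-like (0.874 ± 1.499 CPM) and erythroid-like (0.850 ± 0.926 CPM) classes. From the unnamed class on, neighbours in this order differed by less than the larger of their SDs. Connective tissue-like and epidermal-like cells, which are not neighbours in it, differed by more than their SDs for KDR and also for TIE1 AMEX60DD020063, at 3.98 ± 1.07 and 0.521 ± 0.553 CPM.

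**Figure D1:**
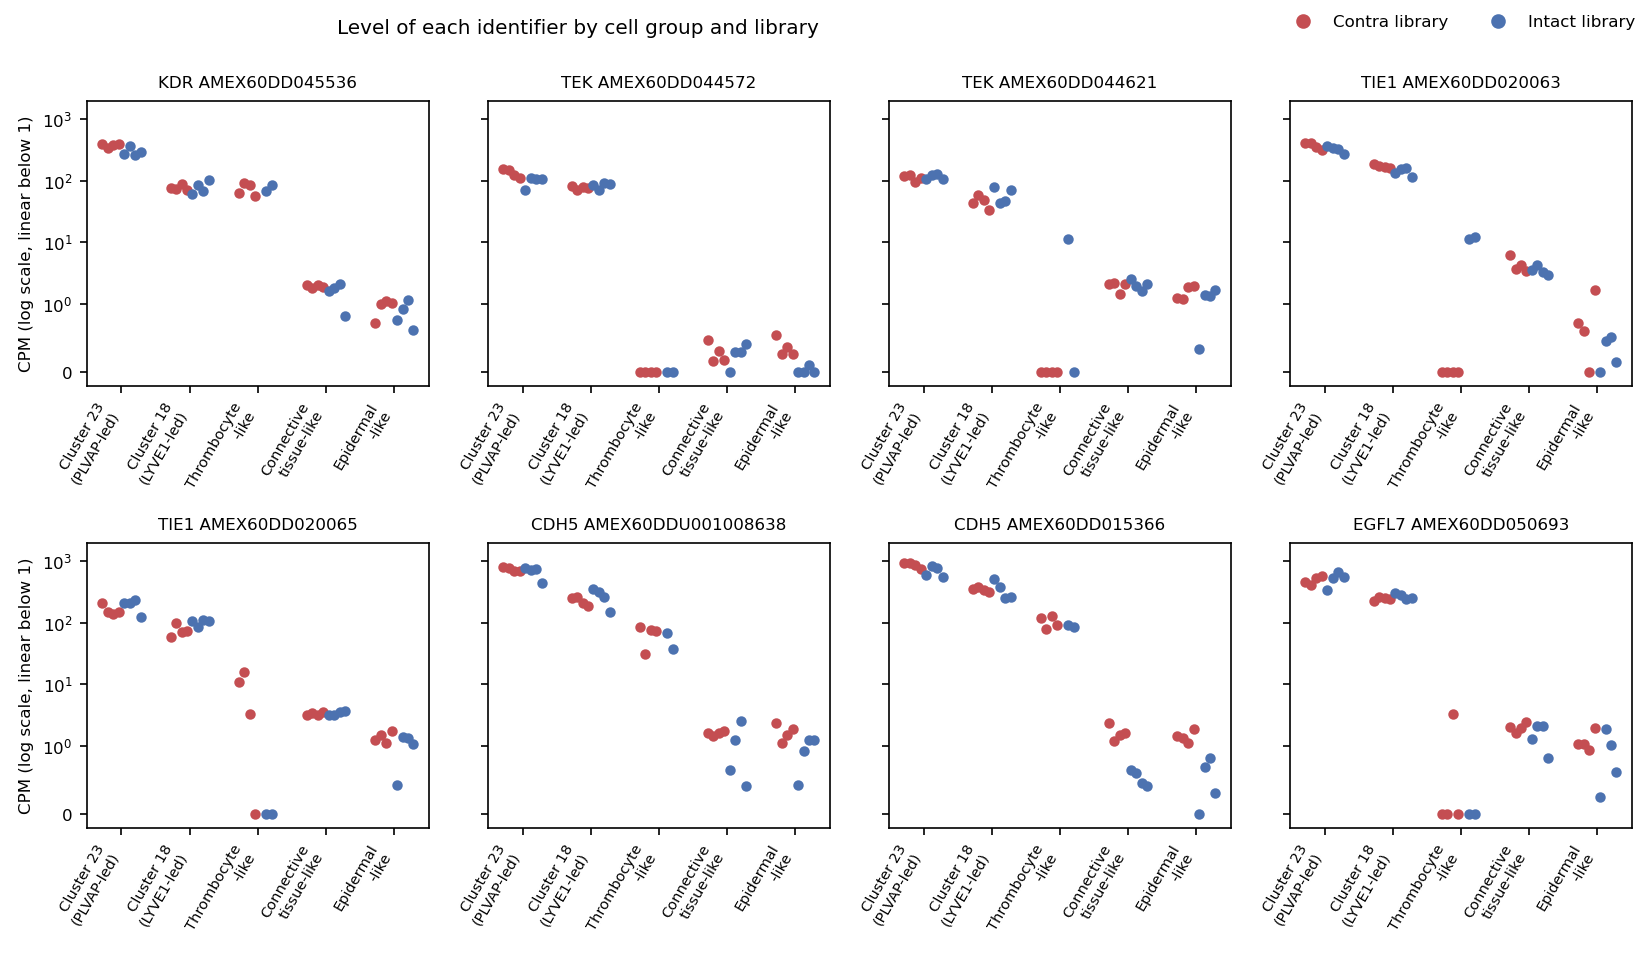
Level of each of the 8 identifiers with enough UMIs (CPM, vertical axis logarithmic above 1 and linear below) in the 2 endothelial-like clusters, the thrombocyte-like cells, the connective tissue-like cells and the epidermal-like cells, with 1 point per library of at least 10 cells. KDR and both CDH5 identifiers also stand above the low classes in thrombocyte-like cells, at 75.6, 62.0 and 98.5 CPM on average, and TEK, TIE1 and EGFL7 do not.

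Shares of cells with a KDR UMI were also highest in endothelial-like cells, while the low classes followed in another order. A KDR UMI was found in 51.3% of endothelial-like cells and in 2.34% of connective tissue-like cells, although the median depth was lower in the endothelial-like cells, at 8161 against 12939.5 UMIs. With 2000 UMIs drawn from each cell the shares were 25.2% and 0.407%. The share in connective tissue-like cells is given as the comparison for background, and the part of free RNA or mixed droplets in it was not tested. Of the same 2000 drawn UMIs, TEK was found in 16.3% and 11.4% of endothelial-like cells, TIE1 in 33.8% and 17.8%, CDH5 in 43.8% and 51.9% and EGFL7 in 42.0%, and no share in connective tissue-like cells exceeded 0.929%. At least 1 of the 6 symbols was found in 91.6% of 2166 endothelial-like cells and at least 2 in 66.2%, against 3.09% and 0.0850% of 16464 connective tissue-like cells.

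ERG could not be followed. Its only identifier, AMEX60DD047184, had 7 UMIs in 7 cells among all cells kept, 4 of them in endothelial-like cells and 3 in connective tissue-like cells. In VWF cells it had 1 UMI in Contra 2 and 3 UMIs in Intact 3, so it was not tested in any comparison. What this low count means for the level of ERG in these cells was not tested.

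Within the endothelial-like class the PLVAP-led cluster 23 had more of every member but ERG per UMI than the LYVE1-led cluster 18. The clusters were made from the same cells, so their differences are described and not tested. The share of all genes without overlap between these clusters was not worked out. A lack of overlap below therefore does not set the members apart from other genes. KDR averaged 339 ± 57.8 CPM in cluster 23 (262 to 402 over 8 libraries) and 78.1 ± 12.9 CPM in cluster 18 (61.9 to 102), with no overlap. Libraries of the 2 clusters did not overlap either for TEK AMEX60DD044621 (115 ± 11.9 CPM in cluster 23 and 53.2 ± 15.2 CPM in cluster 18), for both TIE1 identifiers (352 ± 47.9 and 178 ± 42.9 CPM in cluster 23, and 157 ± 23.1 and 88.7 ± 19.98 CPM in cluster 18), or for both CDH5 identifiers (704 ± 117 and 779 ± 146 CPM in cluster 23, and 250 ± 66.8 and 350 ± 84.6 CPM in cluster 18). EGFL7, at 506 ± 102 CPM in cluster 23 and 257 ± 24.5 CPM in cluster 18, did not overlap, with 339 CPM as the lowest library of cluster 23 and 299 CPM as the highest of cluster 18.

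TEK AMEX60DD044572 was the exception in overlap. It averaged 116 ± 26.4 CPM in cluster 23 and 80.6 ± 7.76 CPM in cluster 18. The ranges of 70.2 to 154 CPM and 70.9 to 92.0 CPM overlapped. The low end of 70.2 CPM was Intact 1, where cluster 23 had 11 cells with 6 UMIs of this identifier. The overlap at that end thus rests on few cells. Beside the members, genes of the same pathways split between the clusters. Pooled levels in clusters 23 and 18 were 774 and 4.07 CPM for FLT1 (VEGFR1), 775 and 3.44 CPM for NRP1 (a VEGF co-receptor), 167 and 7.76 CPM for the Notch ligand DLL4, and 437 and 6.45 CPM for the ligand VEGFC. In the other direction they were 55.4 and 453 CPM for FLT4 (VEGFR3, the receptor for VEGF-C), 84.9 and 785 CPM for NRP2, 19.7 and 529 CPM for PROX1 (the lymphatic transcription factor of mammals) and 404 and 1866 CPM for the scavenger receptor STAB1. KDR was thus higher in cluster 23 and FLT4 in cluster 18, while the TEK AMEX60DD044572 means of 116 and 80.6 CPM lay closer together.

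A second class carried part of the set. The thrombocyte-like cluster 20 held 162 cells, led by MYH11 and by the platelet glycoprotein genes ITGA2B, GP1BB, GP5 and GP9. In its 6 libraries with at least 10 cells KDR averaged 75.6 ± 15.1 CPM (55.8 to 93.8), and CDH5 averaged 62.0 ± 22.5 CPM (AMEX60DDU001008638) and 98.5 ± 19.0 CPM (AMEX60DD015366). The other members were close to absent there. TEK had 0 and 1 UMI, TIE1 2 and 4 UMIs and EGFL7 1 UMI among 769856, where 3 UMIs correspond to 3.90 CPM. KDR in these cells lay at the level of cluster 18 and below that of cluster 23, while both CDH5 identifiers lay below both clusters. Of 124 cells with 2000 drawn UMIs, 41.9% had at least 1 of the 6 symbols and 4.84% at least 2, against 88.7% and 56.1% in cluster 18. VWF stood at 20.8 CPM in cluster 20, and ANGPT2 AMEX60DD005919, a TEK ligand, at 1481 CPM. The cluster also showed 4 of 18 endothelial and 3 of 5 muscle fibre markers beside 7 of 7 thrombocyte markers, and the part of mixed droplets in its KDR and CDH5 UMIs was not tested.

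Across 26 clusters, the genes whose CPM profile was most like that of each member were MYCT1 for KDR (Pearson r = 0.964), APOLD1 for TEK AMEX60DD044572 (0.979), THSD1 for TEK AMEX60DD044621 (0.944), HOXB7 for TIE1 AMEX60DD020063 (0.925), SHANK3 for TIE1 AMEX60DD020065 (0.963) and PTPRB for EGFL7 (0.957). The CDH5 identifiers were most like each other (0.978), and after that PLVAP was nearest to AMEX60DDU001008638 (0.953) and CLDN11 to AMEX60DD015366 (0.957). The clusters share libraries and depth, and the coefficients describe profiles only.

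Cells of the endothelial-like class with at least 1 VWF UMI, called VWF cells here, were then divided by LYVE1. There were 2058 LYVE1-positive and 297 LYVE1-negative VWF cells. LYVE1-positive cells had less KDR, TEK AMEX60DD044621, TIE1 AMEX60DD020065 and EGFL7, and more TEK AMEX60DD044572 and CDH5 AMEX60DD015366, so the pairs of identifiers of TEK moved in opposite directions. These directions hold for VWF cells of the endothelial-like class: with cells of any class that had at least 2 VWF UMIs, other cell types included, the log2 fold changes were positive for KDR (2.17), TEK AMEX60DD044621 (1.94), TIE1 AMEX60DD020065 (1.62) and EGFL7 (1.81). The sets also differed in depth and make-up: the median cell had 9126 UMIs in LYVE1-positive and 2790 in LYVE1-negative cells, and cluster 23 gave 23.9% of LYVE1-positive and 53.2% of LYVE1-negative cells. Summed thrombocyte markers stood at 70.3 to 152 CPM over the LYVE1-positive libraries, against 0 to 59.6 CPM in LYVE1-negative cells, and were higher in 8 of 8 libraries. Summed mural markers stood at 143 to 389 CPM against 185 to 547 CPM, and were lower in 8 of 8. Summed epidermal markers, at 1496 to 3543 CPM against 1141 to 1952 CPM, were higher in 7 of 8. The part of these differences in the members' values was not tested. The comparison was therefore read again with LYVE1 called from 2000 UMIs drawn from each cell, and within each cluster.

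KDR had 107 CPM in the lowest, 141 CPM in the median and 192 CPM in the highest LYVE1-positive library, against 170, 236 and 351 CPM in LYVE1-negative cells. It was lower in LYVE1-positive cells in all 8 libraries, and the ranges overlapped. EGFL7 had 275, 310 and 358 CPM in LYVE1-positive cells, against 413, 605 and 935 CPM in LYVE1-negative cells, with every LYVE1-positive library below every LYVE1-negative one. The share of all genes without overlap was not worked out for the LYVE1 comparisons, here or within the clusters below. A lack of overlap in them therefore does not set a member apart from other genes. TEK AMEX60DD044572 had 80.9, 95.1 and 114 CPM against 0, 46.0 and 111 CPM, and was higher in LYVE1-positive cells in 7 of 8 libraries, Contra 2 being the exception. TEK AMEX60DD044621 had 56.8, 64.8 and 78.7 CPM against 75.1, 120 and 185 CPM, and was lower in all 8. The listing at 0 came from Intact 1, where 8 LYVE1-negative cells had 16192 UMIs in all, so that 3 UMIs correspond to 185 CPM. The highest LYVE1-negative value of TEK AMEX60DD044621, 185 CPM, was those 3 UMIs.

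For TIE1, AMEX60DD020065 had 86.5, 101 and 146 CPM in LYVE1-positive cells, against 125, 225 and 741 CPM in LYVE1-negative cells, and was lower in all 8 libraries. TIE1 AMEX60DD020063 had 166, 222 and 256 CPM against 202, 228 and 307 CPM, with overlapping ranges. For CDH5, AMEX60DD015366 had 376, 494 and 568 CPM against 0, 360 and 550 CPM, and was higher in 6 of 8 libraries. CDH5 AMEX60DDU001008638 had 255, 397 and 467 CPM against 61.8, 374 and 500 CPM, and was higher in 5 of 8. Both low ends of the LYVE1-negative CDH5 ranges were Intact 1, and so was the 741 CPM of TIE1 AMEX60DD020065. These values rest on 8 cells.

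In edgeR's quasi-likelihood test with the library as a block, 49.1% of 5845 genes tested differed at a Benjamini-Hochberg adjusted p under 0.05, 26.1% higher and 23% lower, and 6 of the 8 member identifiers tested did, 2 higher and 4 lower. A share so large for all genes leaves the members' count with little to set it apart. The log2 fold changes were -0.43 ± 0.14 (SE; adjusted p = 0.0104) for KDR, -0.76 ± 0.14 (7.43e-05) for EGFL7, 0.99 ± 0.21 (0.000433) and -0.56 ± 0.17 (0.0093) for TEK AMEX60DD044572 and AMEX60DD044621, -0.87 ± 0.16 (8.42e-05) for TIE1 AMEX60DD020065 and 0.59 ± 0.18 (0.00822) for CDH5 AMEX60DD015366. Neither TIE1 AMEX60DD020063 (0.10 ± 0.13, edgeR adjusted p = 0.552) nor CDH5 AMEX60DDU001008638 (0.29 ± 0.15, edgeR adjusted p = 0.126) passed. TMM scaling put the fitted changes above the log2 ratios of CPM by a median of 0.22 over the libraries, and TIE1 AMEX60DD020063 has a positive fit beside a lower CPM mean in LYVE1-positive cells. With RLE scaling 1732 genes were higher and 897 lower, in place of 1525 and 1345, KDR no longer passed (-0.32, edgeR adjusted p = 0.0553) and CDH5 AMEX60DDU001008638 did (0.40, edgeR adjusted p = 0.0383). Without Intact 3, KDR (-0.34, edgeR adjusted p = 0.0562) and TEK AMEX60DD044621 (-0.43, edgeR adjusted p = 0.0502) did not pass.

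**Figure D2:**
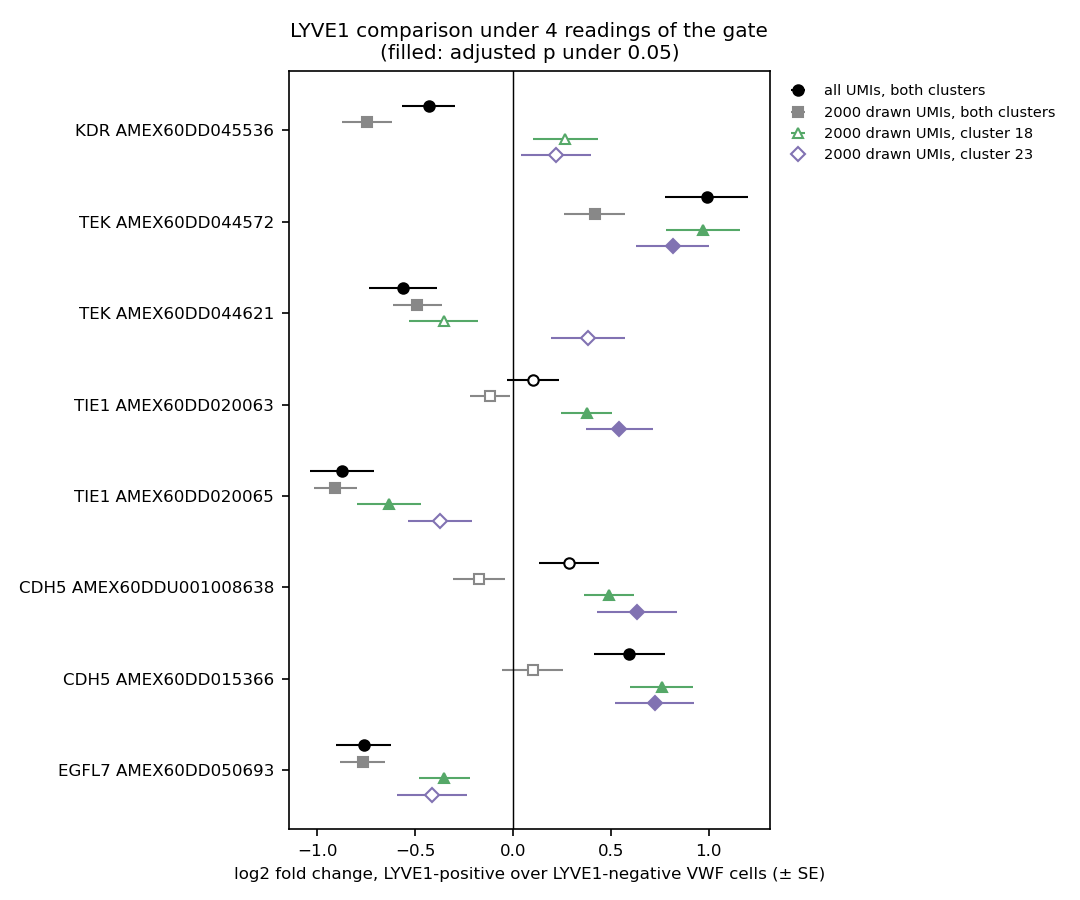
Log2 fold change of each identifier (horizontal axis, with its SE) between LYVE1-positive and LYVE1-negative VWF cells under 4 readings of LYVE1, with filled points for an adjusted p under 0.05. The points for KDR lie at -0.43 and -0.75 over all VWF cells and at 0.27 and 0.22 within clusters 18 and 23, while those of TEK AMEX60DD044572 and EGFL7 keep their side of 0 throughout.

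With LYVE1 called from 2000 drawn UMIs, 1618 VWF cells were LYVE1-positive and 519 LYVE1-negative. Many of these LYVE1-negative cells had a LYVE1 UMI at full depth, from 31.6% in Intact 5 to 77.4% in Intact 3. Within cluster 18 that share was 50% to 81.6% over the libraries, and within cluster 23 it was 18.2% to 81.6%. The drawn gate thus largely sets higher against lower LYVE1, and not presence against absence. In this fit 41.0% of 10158 genes differed (23.3% higher and 17.8% lower), as did 5 of 8 members, 1 higher and 4 lower. KDR was lower in LYVE1-positive cells by more than before, at a log2 fold change of -0.75 (edgeR adjusted p = 6.77e-05; lower in 8 of 8 libraries), and EGFL7 by as much, at -0.77 (1.55e-05; 8 of 8). TIE1 AMEX60DD020065 stood at -0.91 (8.29e-07) and TEK AMEX60DD044621 at -0.49 (0.00316). TEK AMEX60DD044572 was less raised, at 0.42 (edgeR adjusted p = 0.0383; higher in 6 of 8 libraries). CDH5 AMEX60DD015366, at 0.10 (edgeR adjusted p = 0.629), no longer passed. Its CPM was now lower in LYVE1-positive cells in 6 of 8 libraries, at medians of 471 against 519 CPM. TMM scaling put the changes of this fit above the CPM ratios by a median of 0.21. TIE1 AMEX60DD020063 (-0.12) and CDH5 AMEX60DDU001008638 (-0.18) did not pass and had the other sign.

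Within one cluster, by the drawn UMIs, KDR did not pass, and TEK AMEX60DD044572 passed in both. In cluster 18, with 1323 LYVE1-positive and 217 LYVE1-negative cells by the drawn UMIs, 40.4% of 6469 genes differed (24.8% higher and 15.6% lower), and 6 of 8 members did. In cluster 23, with 295 and 302 cells, 14.2% of 6103 genes differed (11.1% higher and 3.13% lower), and 4 of 8 members did, all higher. KDR pooled over libraries stood at 80.7 CPM in LYVE1-positive and 77.6 CPM in LYVE1-negative cells of cluster 18, and at 372 CPM in both sets of cluster 23. Its log2 fold changes of 0.27 (edgeR adjusted p = 0.199) and 0.22 (0.406) did not pass. With LYVE1 called from all UMIs, 44.1% of 3171 genes differed in cluster 18 (26.2% higher, 17.8% lower) and 39.6% of 3193 in cluster 23 (23.7% higher, 15.8% lower), and KDR stood at 0.0088 and 0.47 (edgeR adjusted p = 0.98 and 0.0416). The lower KDR of LYVE1-positive cells over all VWF cells was thus not found inside either cluster. The share of cluster 23 and the marker sums given above differed between the sets, and their part was not tested.

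TEK AMEX60DD044572 was higher in LYVE1-positive cells in 8 of 8 libraries in each cluster. In cluster 18 it had 72.5, 84.9 and 117 CPM in the lowest, median and highest LYVE1-positive library, against 0, 48.9 and 72.3 CPM in LYVE1-negative cells, and every LYVE1-positive library lay above every LYVE1-negative one. In cluster 23 it had 83.6, 157 and 199 CPM against 38.3, 91.4 and 158 CPM, with overlap. The log2 fold changes were 0.97 (edgeR adjusted p = 8.11e-05) and 0.82 (0.0105). TEK AMEX60DD044621 did not follow it, at -0.35 (edgeR adjusted p = 0.107) in cluster 18 and 0.38 (0.159) in cluster 23. Intact 1 had only 2 LYVE1-negative cells in each cluster, and Intact 5 had 8 in cluster 18. The values of these sets, here and for the members below, rest on few cells.

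CDH5 also rose within both clusters. AMEX60DD015366 had 239, 359 and 563 CPM in LYVE1-positive cells of cluster 18, against 0, 254 and 314 CPM in LYVE1-negative cells, and 686, 942 and 1137 CPM against 287, 705 and 883 CPM in cluster 23. It was higher in 7 of 8 and in 8 of 8 libraries, with log2 fold changes of 0.76 (edgeR adjusted p = 0.000229) and 0.72 (0.0192). CDH5 AMEX60DDU001008638 passed too, at 0.49 (edgeR adjusted p = 0.00224; higher in 5 of 8 libraries) and 0.63 (0.0399; 7 of 8). TIE1 AMEX60DD020063 passed in both fits, at 0.38 (edgeR adjusted p = 0.0214) in cluster 18 and 0.54 (0.0337) in cluster 23, although its CPM was higher in only 3 of 8 libraries of cluster 18.

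EGFL7 and TIE1 AMEX60DD020065 kept the opposite direction. In cluster 18 EGFL7 had 205, 233 and 276 CPM in LYVE1-positive cells, against 257, 353 and 723 CPM in LYVE1-negative cells, and in cluster 23 it had 251, 422 and 512 CPM against 513, 591 and 890 CPM. It was lower in all 8 libraries each time, and in cluster 23 the ranges did not overlap. The log2 fold change passed in cluster 18 (-0.35, edgeR adjusted p = 0.0287) and not in cluster 23 (-0.41, edgeR adjusted p = 0.108). TIE1 AMEX60DD020065 was lower in 7 of 8 libraries of cluster 18 (-0.64, edgeR adjusted p = 0.00203) and in 8 of 8 of cluster 23, where it did not pass (-0.37, edgeR adjusted p = 0.118). TMM scaling stood above the CPM ratios by a median of 0.28 and 0.22 in these fits. By the drawn UMIs, LYVE1-positive cells of cluster 18 had the higher median depth in 7 of 8 libraries, with 9696.5 UMIs against 5847 in LYVE1-negative cells in Contra 1 and nearly equal values of 7685 against 7639.5 in Contra 2. Intact 1 had the other order, with 7057 UMIs against 8993 in its 2 LYVE1-negative cells. Summed epidermal markers were higher in LYVE1-positive cells in 8 of 8 libraries of each cluster, at medians of 1295 against 777 CPM in cluster 18 and 4309 against 2822 CPM in cluster 23. The part of depth and of these markers in the members' values was not tested.

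**Figure D3:**
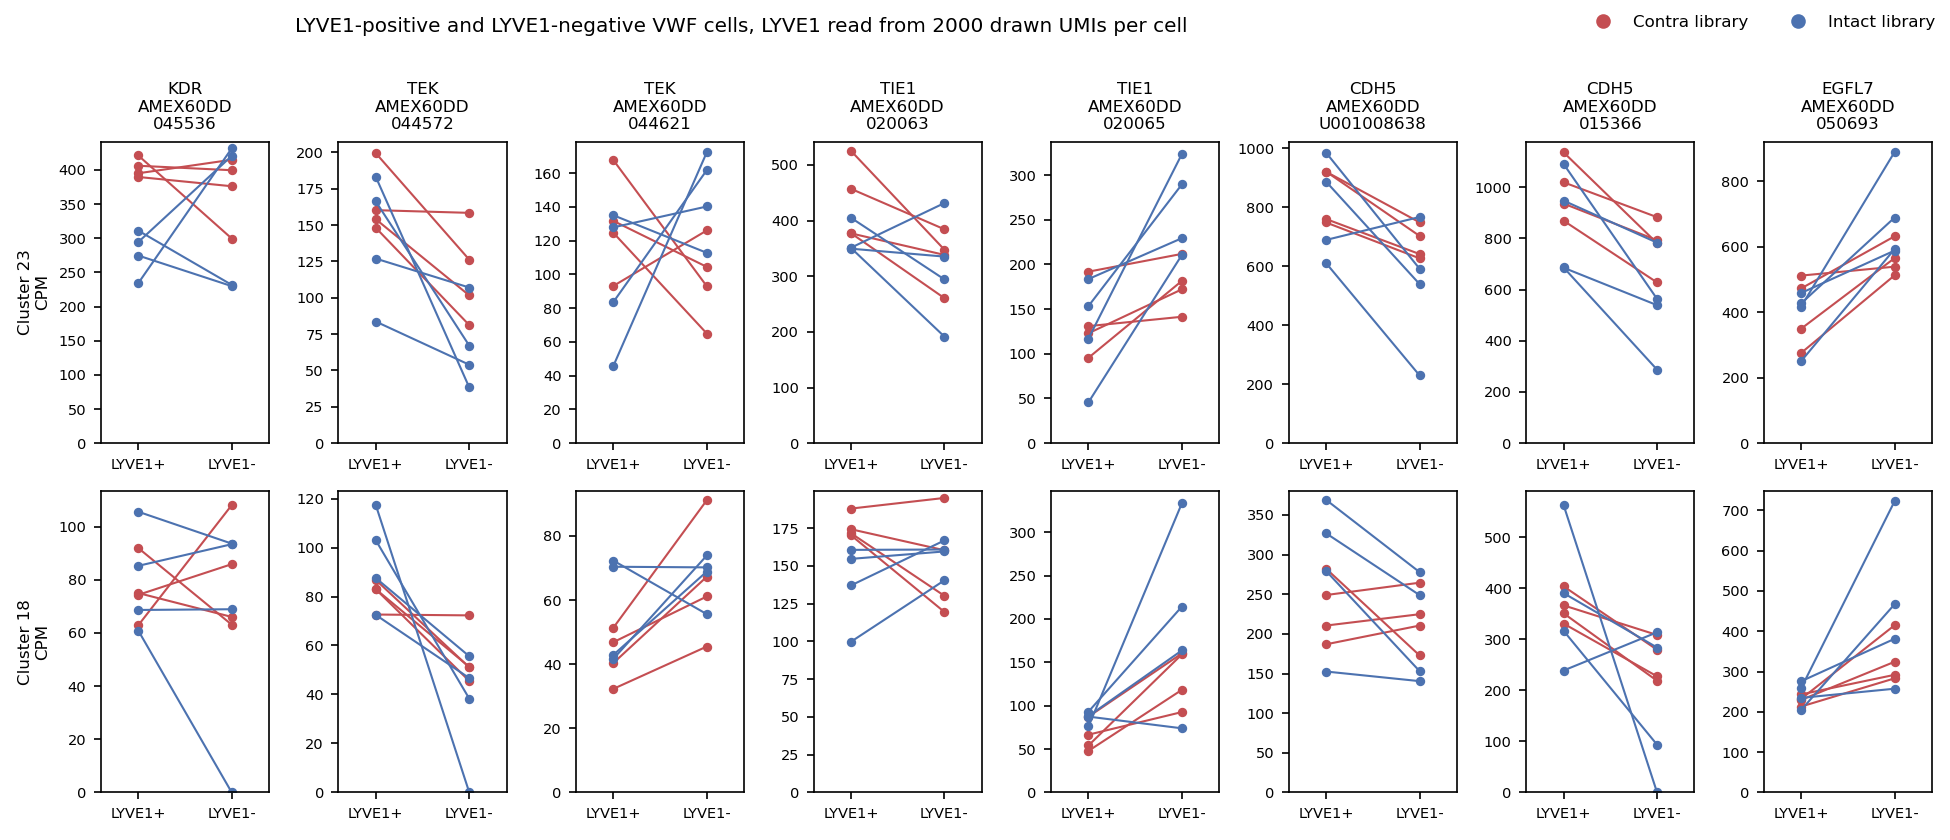
CPM of each identifier in LYVE1-positive and LYVE1-negative VWF cells, LYVE1 called from 2000 drawn UMIs, with a line for each of the 8 libraries, in cluster 23 (top) and cluster 18 (bottom). Every line of TEK AMEX60DD044572 is higher on the LYVE1-positive side and every line of EGFL7 is lower, in both clusters.

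Other genes of these pathways were read in the same fits from lists of known roles. Over all VWF cells, all 5 tested VEGF receptor or co-receptor identifiers differed: FLT4 (0.75) and NRP2 (0.74) were higher in LYVE1-positive cells, and FLT1 (-1.82 and -1.004 for its identifiers) and NRP1 (-1.31) were lower. Of the ligands only VEGFC was tested, and it was lower (-1.52). Among 3 angiopoietin and TIE-partner identifiers, ANGPT2 AMEX60DD033437 was higher (1.21) and none was lower. Notch and artery or vein genes had 6 of 11 identifiers lower, NOTCH1 (-1.47), CXCR4 (-1.30), EFNB2 (-1.11), ACVRL1 (-0.83), JAG2 (-0.82) and DLL4 (-0.71), and none higher. The list medians were -1.004 for the receptors and -0.71 for the Notch genes, beside -0.08 for all genes tested.

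Of 11 junction and surface identifiers, 4 were higher, among them S1PR1 (1.34), a sphingosine phosphate receptor, and the catenin genes CTNNB1 (1.13) and CTNNA1 (0.97) beside the tight-junction gene CLDN5 (0.94). As many were lower, ESAM (-1.59), CD34 (-1.16), PECAM1 (-0.64) and ENG (-0.29). For comparison, 26.1% of all genes tested were higher and 23% lower, as given above. Of 15 transcription factor identifiers, 7 were higher, NR2F2 (2.21), KLF2 (1.59), SOX7 (1.24), PROX1 (1.23), LMO2 (0.84), GATA2 (0.84) and KLF4 (0.78), and 3 lower, ETS2 (-0.96) and both FLI1 identifiers (-0.36 each). Of 4 scavenger and lymphatic-leaning identifiers, with LYVE1 left out as the gate, STAB2 (1.19), MMRN1 (1.19) and STAB1 (0.63) were higher. Of 7 mitotic identifiers, 5 were lower, KIF11 (-0.68), BUB1 (-0.66), CENPE (-0.65), ANLN (-0.59) and CENPF (-0.47). By 2000 drawn UMIs, a TOP2A UMI was found in 6.69% of LYVE1-positive and 5.56% of LYVE1-negative VWF cells, the other direction. The TOP2A shares were not tested. The medians were -0.29, 0.63, 0.91 and -0.59 for these lists.

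Most of the receptor and Notch differences were not called within a cluster. Only 2 receptor and 4 Notch and artery or vein identifiers passed the count filter in cluster 18, fewer than over all VWF cells. The others could not be called there. By drawn UMIs, 24.8% of all genes tested were higher and 15.6% lower in cluster 18. In cluster 23 these shares were 11.1% and 3.13%, and list counts near such shares do not set a list apart. By drawn UMIs, none of the 2 and 5 receptor identifiers tested in clusters 18 and 23 was higher, and only NRP2 in cluster 18 (-0.31) was lower. Of 4 and 12 Notch and artery or vein identifiers 1 passed in each, JAG1 in cluster 18 (0.55) and APLNR AMEX60DD000903 in cluster 23 (1.00), both higher. In contrast, 7 of 10 surface identifiers were higher in cluster 18, with S1PR1 at 1.43, CLDN5 at 1.28 and CTNNA1 at 1.52 and 0.91, and 2 of 11 in cluster 23, CLDN5 at 1.397 and CTNNB1 at 0.71. Transcription factors were higher for 8 of 14 identifiers in cluster 18 and 4 of 15 in cluster 23, with NR2F2 (0.99 and 1.42), LMO2 (0.90 and 0.66), GATA2 (1.06 and 0.97) and SOX7 (0.82 and 0.72) in both, and none was lower. The mitotic list had 6 of 8 identifiers lower in cluster 18 and 0 of 8 in cluster 23, where few genes of any kind were lower (3.13%).

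No member passed the test between VWF cells with and without TOP2A. There were 333 TOP2A-positive and 2022 TOP2A-negative VWF cells, with median depths of 11901 and 7760.5 UMIs and with 30.9% and 27.003% of cells in cluster 23. KDR had 24.1, 169 and 222 CPM in the lowest, median and highest TOP2A-positive library, against 124, 159 and 199 CPM in TOP2A-negative cells. The low value was Intact 1, with 3 UMIs in 12 cells, and the other 7 TOP2A-positive libraries lay at 122 to 222 CPM. TEK had medians of 99.5 and 65.5 CPM in TOP2A-positive cells, against 91.1 and 71.6 CPM in TOP2A-negative cells, and TIE1 had 226 and 91.6 CPM against 222 and 110 CPM, in the order of identifiers given above. CDH5 had medians of 414 and 489 CPM against 396 and 496 CPM, and EGFL7 of 323 CPM against 327 CPM. Each of the 8 identifiers was higher in TOP2A-positive cells in 3 to 6 of the 8 libraries.

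In the edgeR fit with the library as a block, 8.85% of 9679 genes differed with TOP2A, 5.47% higher and 3.39% lower, and 0 of 8 member identifiers did. None had an unadjusted p under 0.05 either, and DESeq2 called none of them. The members' log2 fold changes lay between -0.20 (TEK AMEX60DD044621, edgeR adjusted p = 0.563) and 0.06 (CDH5 AMEX60DDU001008638, 0.842), and all 8 of their 95% intervals lay between -0.53 and 0.34. In the same fit 9 of 11 mitotic identifiers were higher, with CCNA2 at 5.57, PLK1 at 4.58 and CENPF at 3.27, and TOP2A is itself a cell cycle gene. Of the other lists, NRP1 (0.69) was higher and FLT4 (-0.47) lower among 5 receptor identifiers, SOX17 (0.94) higher and PROX1 (-0.63) lower among 17 transcription factors, EFNB2 (0.66) higher among 12 Notch and artery or vein identifiers, and STAB2 (-0.90 and -0.77) and STAB1 (-0.53) lower among 9 scavenger and lymphatic-leaning ones. In 3 lists none passed: VEGFC stood at 0.26, TNS1 and ANGPT2 at -0.37 and -0.33, and CLDN5 and CTNNB1 at -0.45 and -0.28. List medians were 2.71 for the mitotic list and -0.35 for the scavenger list, beside -0.01 for all genes tested. With TOP2A read from 2000 drawn UMIs, 8.46% of 5972 genes differed (5.53% higher and 2.93% lower) and again 0 of 8 members, at log2 fold changes between -0.44 (TIE1 AMEX60DD020065) and 0.31 (TIE1 AMEX60DD020063).

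Counted by cells rather than by UMIs, the shares differed more with TOP2A at full depth than at equal depth for most members named here. KDR kept a gap in the cells pooled over libraries, but not in every library. A KDR UMI was present in 61.3% of TOP2A-positive and 50.05% of TOP2A-negative VWF cells, and TEK AMEX60DD044572 in 56.8% and 42.4%. CDH5 AMEX60DDU001008638 was present in 83.5% and 69.9%, and TIE1 AMEX60DD020063 in 79.3% and 68.5%. With both TOP2A and the members read from 2000 drawn UMIs, there were 141 positive and 1996 negative cells, and the shares were 17.7% and 16.4% for TEK AMEX60DD044572, 45.4% and 43.5% for CDH5 AMEX60DDU001008638, 37.6% and 33.4% for TIE1 AMEX60DD020063 and 42.6% and 41.9% for EGFL7. KDR kept the widest gap, at 33.3% (exact 95% interval 25.6 to 41.8) of TOP2A-positive and 24.4% (22.6 to 26.4) of TOP2A-negative cells. The KDR gap was reversed in Contra 3, at 23.1% of 39 TOP2A-positive and 26.2% of 508 TOP2A-negative cells. It was also reversed in Intact 1, at 0% of 5 and 16.2% of 37 cells. The other libraries had the higher share in TOP2A-positive cells, with 8 such cells in Intact 4 and 4 in Intact 5. TEK AMEX60DD044621, at 7.09% and 11.7%, and TIE1 AMEX60DD020065, at 14.9% and 17.9%, had the lower share in TOP2A-positive cells. These intervals cover counting error only, and the shares were not tested.

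No member passed the test adjusted over all genes in Contra against Intact VWF cells. KDR and TIE1 AMEX60DD020063 had the largest differences upward and TIE1 AMEX60DD020065 the largest downward among the 8 identifiers, on the log2 scale of the fit. There were 1673 Contra and 682 Intact VWF cells. Intact 1 had 52 of them and Intact 5 had 69, and the other libraries had 197 to 589. The values of Intact 1 and Intact 5 below thus rest on few cells. Cluster 23 gave 22.5% to 37.4% of VWF cells in the Contra libraries and 17.3% to 37.7% in the Intact ones. Summed connective tissue markers stood at 1283 to 2944 CPM in Contra and 164 to 2535 CPM in Intact VWF cells. The part of either in the values below was not tested.

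KDR had 169, 134, 177 and 204 CPM in VWF cells of Contra libraries 1, 2, 3 and 5, against 110, 143, 141 and 167 CPM in Intact libraries 1, 3, 4 and 5. Contra 2 lay among the Intact libraries, and 3 Contra libraries lay above every Intact one. The means were 171 ± 28.6 and 140 ± 23.1 CPM (SD, n = 4 each), with a log2 fold change of 0.37 ± 0.16 (edgeR unadjusted p = 0.0402, adjusted p = 0.777).

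TIE1 AMEX60DD020063 had 254, 229, 224 and 223 CPM in Contra libraries, against 185, 192, 227 and 172 CPM in Intact libraries, where Intact 4 alone reached the Contra range. The means were 233 ± 14.7 and 194 ± 23.5 CPM and the log2 fold change was 0.33 ± 0.12 (edgeR unadjusted p = 0.0168, adjusted p = 0.773). TIE1 AMEX60DD020065 had 101, 109, 90.3 and 101 CPM in Contra libraries, against 124, 112, 158 and 113 CPM in Intact libraries. Here the groups did not overlap, as for 4.18% of the 14995 genes tested, and the log2 fold change was -0.27 ± 0.13 (edgeR unadjusted p = 0.0529, adjusted p = 0.799).

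TEK AMEX60DD044572 had 103, 90.3, 93.3 and 89.9 CPM in Contra libraries, against 83.3, 79.8, 97.7 and 96.0 CPM in Intact libraries, and TEK AMEX60DD044621 had 65.6, 73.9, 62.5 and 65.1 CPM against 83.3, 59.8, 79.4 and 84.7 CPM. The groups overlapped for both. CDH5 AMEX60DDU001008638 had 412, 379, 353 and 389 CPM in Contra libraries, against 449, 404, 441 and 251 CPM in Intact libraries, and CDH5 AMEX60DD015366 had 524, 502, 493 and 484 CPM against 543, 477, 446 and 350 CPM. For both CDH5 identifiers Intact 5 was the lowest of all libraries and Intact 1 the highest, and these libraries had the fewest VWF cells. EGFL7 had 293, 292, 333 and 369 CPM in Contra libraries, against 306, 336, 410 and 361 CPM in Intact libraries, which overlapped.

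**Figure D4:**
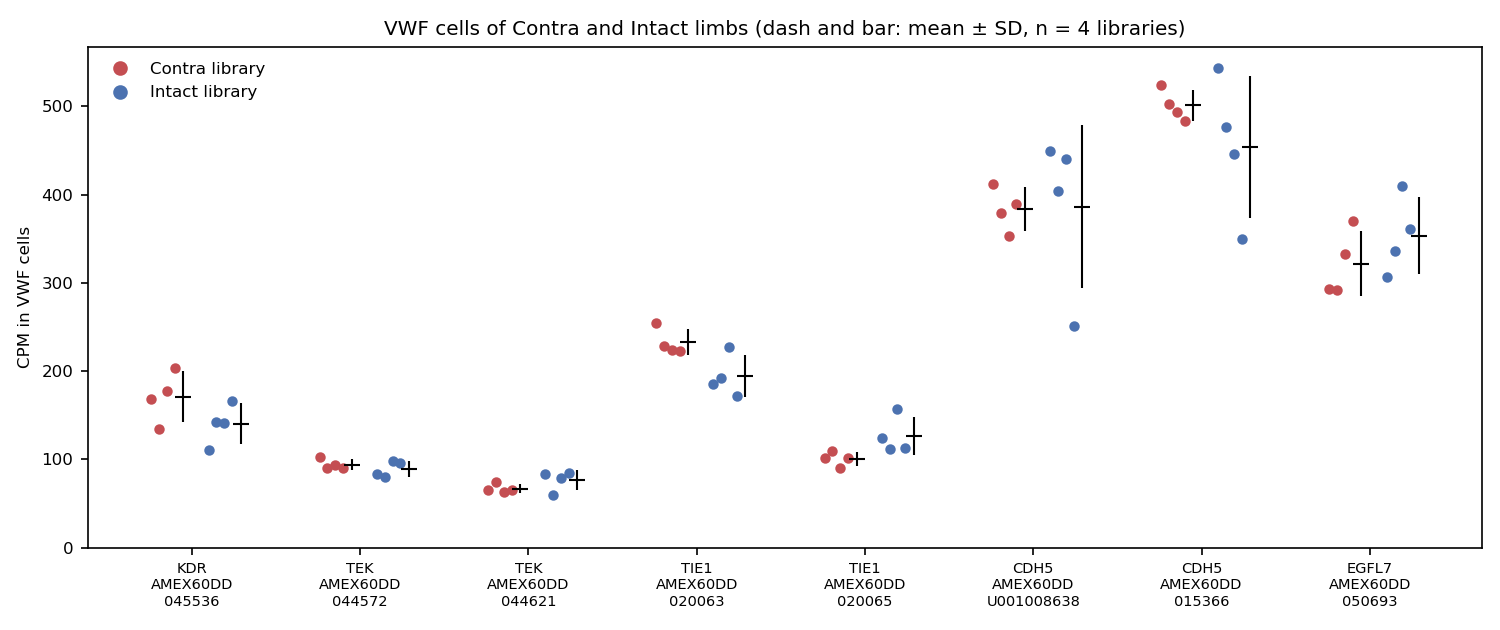
CPM of each identifier in VWF cells of the 4 Contra and 4 Intact libraries (points), with the mean and SD of each group. The groups overlap for every identifier except TIE1 AMEX60DD020065, where the Contra libraries lie at 90.3 to 109 CPM, below the Intact ones at 112 to 158 CPM.

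In that fit 0.0% of 14995 genes were called, and 0 of 8 member identifiers. At an unadjusted p under 0.05 the fit held 931 genes (6.21%), KDR and TIE1 AMEX60DD020063 among them. DESeq2 called 38 genes, but it gave an adjusted p to only 750 of 14990 genes. On simulated counts with 4 libraries a group, the same fit called 61% of genes changed 2-fold and 97% of those changed 4-fold. Numbers 1, 3 and 5 occur in both groups. Among the libraries numbered 1 and 3, the Contra minus Intact difference of means was 46.4 CPM for KDR. It was 50.3 CPM for TIE1 AMEX60DD020063 and -22.1 CPM for TIE1 AMEX60DD020065. Among the other libraries (Contra 2 and 5, Intact 4 and 5) the 3 differences were 15.1, 26.3 and -30.2 CPM. These 3 kept their direction, as did TEK AMEX60DD044621 (-7.51 and -12.6 CPM) and EGFL7 (-7.99 and -54.7 CPM). TEK AMEX60DD044572 (16.5 and -6.71 CPM), CDH5 AMEX60DDU001008638 (-44.1 and 38.3 CPM) and CDH5 AMEX60DD015366 (-0.961 and 95.1 CPM) did not. Each part holds 2 libraries per group, and the same values had singled out KDR and TIE1. Agreement between the parts is therefore no second test.

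The pathway lists had 0 identifiers called in this comparison, and the medians lay between -0.19 for the mitotic list and 0.18 for the Notch and artery or vein list, beside -0.01 for all genes tested. The identifiers nearest to the threshold in each list were NRP1 (0.30) and FLT4 (0.15), VEGFD (-0.68) and VEGFA (0.18), SVEP1 (0.29) and TNS1 (-0.10), both CTNNA1 identifiers (0.36 and 0.13), ETV6 (0.22) and MEF2C (-0.15), CXCR4 (0.93) and APLNR (0.38), MMRN1 (0.48) and STAB2 (0.46), and CENPF (-0.44) and ANLN (-0.49). Whether the Contra against Intact change differed between LYVE1-positive and LYVE1-negative VWF cells was tested as an interaction. Of 7159 genes 0.0% were called by edgeR, with 306 at an unadjusted p under 0.05 and 1 called by DESeq2. The members' interaction terms lay between -0.43 and 0.61 with edgeR adjusted p = 1.00 for each. This fit had little reach, as it called 16% of genes simulated with a 2-fold difference and 76% of those with a 4-fold one. Of the lists, CXCR4 (-2.29, edgeR adjusted p = 0.501) and JAG1 (-1.14) had the smallest p among Notch genes, NRP2 (-0.50) and FLT4 (0.27) among receptors, KLF4 (-1.16) and ETS1 (-0.53) among transcription factors, PTPRB (-0.33) and TNS1 (-0.10) among TIE partners, CTNNA1 (1.19 and 0.47) among surface genes, STAB2 (0.49) and RELN (0.56) among scavenger genes and ANLN (1.17 and 1.00) among mitotic genes, and VEGFC, the ligand tested, stood at 0.31.

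The opposite signs of the TIE1 identifiers made their ratio differ between the groups. AMEX60DD020063 gave 71.6%, 67.7%, 71.3% and 68.9% of TIE1 UMIs in VWF cells of Contra libraries 1, 2, 3 and 5, against 60%, 63.2%, 59.1% and 60.4% in Intact libraries 1, 3, 4 and 5. The groups did not overlap, at 69.9% ± 1.87 and 60.7% ± 1.78 (SD, n = 4 each), a difference of 9.19 percentage points with an exact two-sided permutation p = 0.0286, the smallest that 70 assignments can give. This TIE1 difference was looked at after the values were seen and is 1 of 3 such pairs. The shares of Intact 1 and Intact 5 rest on few UMIs, 69 and 46 in Intact 1 and 61 and 40 in Intact 5. Contra 3 had 1429 and 576. For TEK the first identifier gave 58.5% ± 2.64 in Contra and 53.9% ± 3.06 in Intact libraries (exact permutation p = 0.0857), and for CDH5 43.3% and 45.7% (exact permutation p = 0.2). Within cluster 18 the TIE1 share was 63.8% to 76.5% in Contra and 52.0% to 64.1% in Intact libraries, and within cluster 23 it was 66.5% to 73.6% and 58.6% to 69.2%, so the groups overlapped in each cluster. In connective tissue-like cells the TIE1 share was 49.2% to 67% in Contra and 43.8% to 58.0% in Intact libraries, which also overlapped. The lowest of these, Intact 5, had only 7 and 9 UMIs there. What the paired identifiers stand for in the genome was not tested.

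**Figure D5:**
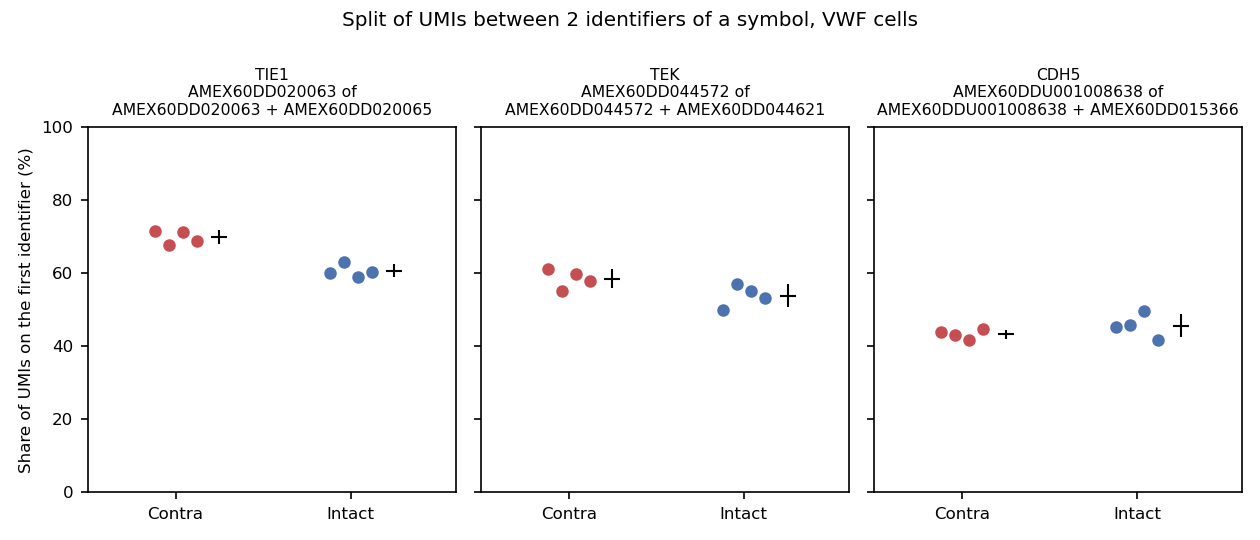
Percent of UMIs on the first of the paired identifiers of TIE1, TEK and CDH5 in VWF cells, with 1 point per library, Contra left of Intact. The 4 Contra libraries lie above the 4 Intact ones for TIE1 (67.7% to 71.6% against 59.1% to 63.2%) and not for the other pairs.

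The TEK identifiers also split by cell type. AMEX60DD044572 gave 62.1% of TEK UMIs in cluster 18 and 52.9% in cluster 23, but 13.8% in connective tissue-like cells (exact 95% interval 10.9 to 17.04) and 12.5% in epidermal-like cells. The few TEK UMIs outside the endothelial-like class thus came mostly from AMEX60DD044621, in a ratio unlike that of the endothelial-like cells.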

How the data were processed

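Per the file headers and the submitters' processing notes, the authors deposited 1 matrix of whole UMI counts per gene and cell for all 8 libraries, and named kallisto 0.48.0 and Seurat 4.2.0. The genome build, the annotation release and the authors' cell filter are not stated by the labels or headers used here. Each cell's library was read from the start of its barcode. The members and the pathway lists were chosen with earlier results of these data known.

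Cells with fewer than 500 genes were dropped. Scrublet called 104 cells as doublets, a share so low that doublets cannot be taken as removed, and these were dropped too. Cells were clustered with scanpy 1.11.5 (2000 variable genes without the members, 30 principal components, 20 neighbours, Leiden resolution 1). Clusters were named from marker lists by a scoring rule set after the data were seen. Counts were summed per library and set of cells and tested on all genes in edgeR 4.0.16 (R 4.3.3; TMM, filterByExpr, quasi-likelihood F test, Benjamini-Hochberg adjustment, threshold 0.05), with DESeq2 1.42.0 as an alternative. Changes are log2 fold changes; their SE is the change over the square root of F. LYVE1, VWF and TOP2A chose the cells and are not read as results. Shares have exact Clopper-Pearson intervals, which cover counting error only. The named genes are the members and, from each list, those that passed or, where none did, the 2 of smallest p. LYVE1 and TOP2A read from 2000 drawn UMIs and fits within clusters were added after the data were seen. The fits were tested on simulated data. The gene table of another axolotl assembly lists each of the 6 symbols once and holds 0 of the deposited identifiers, so no coordinates or sequences are given. All sample columns were used.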

Additional observations from a re-analysis of the deposited data

Results flagged for a closer look

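In LYVE1-positive VWF cells of the 4 Contra libraries, TIE1 AMEX60DD020063 stood at 255.9 CPM in Contra 1 and at 224 to 227 CPM in the other 3, so that Contra 1 lay far from the rest of its group for the spread among them. Of 48 groups of 4 libraries examined in this way it was the only one, and chance alone would mark about 1 in 20. Contra 1 had 92.8 CPM of TIE1 AMEX60DD020065 in the same cells, within the range of its group. The cause was not tested.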

How the results depend on the processing

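In the LYVE1 comparison 2870 genes were called, and 2450 to 2929 with 1 library left out. The 2870 were 49.1% of 5845 genes tested, and the number of genes tested changed with the setting. With VWF cells of any class 4560 of 13663 (33.4%) were called. Within clusters 18 and 23 the counts were 1398 of 3171 (44.1%) and 1263 of 3193 (39.6%). Within cluster 23 by drawn UMIs the count was 867 of 6103 (14.2%). Fewer cells entered the cluster fits and classes mixed in the any-class one, and the part of either was not tested. Signs turned for KDR with VWF cells of any class (2.17), within clusters 18 and 23 (0.0088 and 0.47) and by drawn UMIs within them (0.27 and 0.22), for TEK AMEX60DD044621 with any class (1.94) and by drawn UMIs in cluster 23 (0.38), for TIE1 AMEX60DD020065 (1.62) and EGFL7 (1.81) with any class, and by drawn UMIs for TIE1 AMEX60DD020063 (-0.12) and CDH5 AMEX60DDU001008638 (-0.18). By drawn UMIs the pooled KDR CPM was nearly level, at 80.7 in LYVE1-positive and 77.6 in LYVE1-negative cells of cluster 18. In cluster 23 it was 372 CPM in both sets. TMM scaling put the changes of these cluster fits above the CPM ratios by medians of 0.28 and 0.22. The cells of any class include other cell types, and the other causes were not tested. Without a filter on low counts the median of all genes moved by 0.368, with any class by 0.126, with DESeq2 by 0.118 and with RLE by 0.109 (log2), and by -0.142 without a filter in the TOP2A comparison.

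With TOP2A, 857 genes were called, 527 to 1004 with 1 library left out (527 without Contra 3, 550 without Intact 3), 505 by drawn UMIs (291 in cluster 18, 29 in cluster 23) and 74 within cluster 23. No member was called under any setting, and signs near 0 turned. With 1 library left out, KDR ranged from -0.061 to 0.12, TEK AMEX60DD044572 from -0.075 to 0.16, TIE1 AMEX60DD020063 from -0.025 to 0.056, CDH5 AMEX60DD015366 from -0.077 to 0.056 and EGFL7 from -0.077 to 0.010. Without a filter KDR was -0.11, TEK AMEX60DD044572 -0.11, TIE1 AMEX60DD020063 -0.12 and CDH5 AMEX60DDU001008638 -0.083. With any class these were -0.29, -0.21, -0.23 and -0.22. Within cluster 23 they were -0.20, -0.15, -0.047 and -0.036, and CDH5 AMEX60DD015366 was 0.0011. Within cluster 18 KDR was -0.026, TIE1 AMEX60DD020063 -0.064 and CDH5 AMEX60DDU001008638 -0.064. By drawn UMIs in cluster 23 KDR was -0.25, TEK AMEX60DD044572 -0.29, CDH5 AMEX60DDU001008638 -0.034 and CDH5 AMEX60DD015366 0.10. By drawn UMIs CDH5 AMEX60DD015366 was 0.19 and EGFL7 0.10 (0.018 in cluster 18). KDR was -0.038 with DESeq2 and -0.031 with TOP2A from 2 UMIs, and CDH5 AMEX60DD015366 was 0.022 there.

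In Contra against Intact, 0 genes were called, 252 without a filter, 38 by DESeq2 (among 750 with an adjusted p) and 0 to 1 with 1 library left out (1 without Intact 3). Same-numbered libraries of the 2 groups correlated at 0.0066, 0.29 and 0.11 in their deviations. Libraries with different numbers correlated at -0.21 to 0.19, so 0.29 (number 3) was the highest value of all. The numbers were not taken as pairs, but these values do not settle whether they are. With the replicate block 45 genes were called and EGFL7 was 0.090. TEK AMEX60DD044572 was -0.011 within cluster 18, TEK AMEX60DD044621 0.035 and EGFL7 0.064 without a filter, CDH5 AMEX60DDU001008638 -0.054 with any class and -0.20 within cluster 18. With 1 library left out CDH5 AMEX60DDU001008638 ranged from -0.081 to 0.14 and EGFL7 from -0.13 to 0.032. The interaction had 0 genes called, 3 without a filter, 1 by DESeq2, 2 with LYVE1 from 2 UMIs and 0 to 4 with 1 library left out (4 without Intact 3, 1 without Intact 5). The other members' values kept their sign and their side of the threshold in 126, 130, 147 and 128 cases in the LYVE1, TOP2A, Contra and interaction comparisons, and in the LYVE1 comparison 13 came to pass and 17 no longer passed. LYVE1-negative cells of Intact 1, with 16192 UMIs, limit that library's values most.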

Other observations

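The ligand and partner genes of TEK and KDR were spread over the classes. ANGPT2 AMEX60DD033437 stood at 27.3 CPM pooled over libraries in the PLVAP-led cluster 23 and at 438 CPM in the LYVE1-led cluster 18, while ANGPT2 AMEX60DD005919 was highest in the thrombocyte-like cells, at 1481 CPM. DOK2, an adaptor that binds activated TEK in mammals, stood at 216 CPM in the same thrombocyte-like cells, where TEK itself had 0 and 1 UMI. PTPRB AMEX60DD006522 (VE-PTP, a phosphatase of TEK and CDH5) stood at 416 CPM in cluster 23 and 195 CPM in cluster 18.

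Of 18 identifiers of the Notch and artery or vein list, 12 had a higher pooled level in cluster 23 and 4 in cluster 18, and 2 were at 0 in both. In cluster 23 NOTCH1 AMEX60DD010485 stood at 619 CPM, EFNB2 at 348 CPM, JAG2 at 257 CPM and APLNR AMEX60DD007263 at 461 CPM, against 9.89, 13.8, 13.3 and 0.501 CPM in cluster 18. NOTCH1 AMEX60DD050689, at 73.4 and 131 CPM, and ESM1 AMEX60DD042092, at 15.1 and 71.2 CPM, were higher in cluster 18. NR2F2, the venous transcription factor of mammals, stood at 73.1 CPM in cluster 23 and 460 CPM in cluster 18. These clusters were drawn from the same counts, so the values are descriptions.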
